A study of Mus musculus with 3 samples.

Results

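Single-cell transcriptomes of 3 mouse cultures were searched for 8 genes of cardiac calcium handling and membrane excitability: Ryr2, Atp2a2, Pln, Slc8a1, Cacna1c, Kcnd3, Hcn4 and Nppa. They were chosen by name for their roles in heart muscle, as 8 of the 27886 genes listed in any of the 3 tables. Every culture derived from male F1 hybrid (C57BL/6 x CAST/EiJ) embryonic stem cells, kept by the study as 3 lines each grown from a single cell. Mouse embryonic stem cells (mESC, 215 cells) were grown on gelatin with serum, Lif and the inhibitors PD0325901 and CHIR99021. Cardiac precursor cell cultures (CPCC, 175 cells) came from dissociated embryoid bodies that were expanded with Egf and Fgf2 over several passages, and the study describes them as mixed. Cardiac bodies (CB, 232 cells) were floating aggregates treated with ascorbic acid for several days and picked as rhythmically beating, so they hold whatever cells such an aggregate contains. The labels give 1 sample per culture, so no difference between cultures below has a replicate check and no test of it was made. The cells fall into 3 mESC, 2 CPCC and 3 CB sequencing pools, and no label ties a pool to a line, so pools are printed side by side and not used as replicates.

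The heartbeat is coupled to calcium. During the action potential, the L-type channel, whose pore is encoded by Cacna1c, admits calcium that opens Ryr2, the ryanodine receptor of the sarcoplasmic reticulum, and the released calcium activates the sarcomere. The pump Atp2a2 (SERCA2) returns calcium to the store under restraint by phospholamban (Pln), and the sodium-calcium exchanger Slc8a1 (NCX1) expels the rest. Kcnd3 carries a transient outward potassium current, Hcn4 the pacemaker current of the sinus node, and Nppa encodes the atrial natriuretic peptide secreted by atrial and embryonic heart muscle.

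Levels are given as CPM, the counts of a gene summed over the cells of a culture per 1000000 gene counts of that culture. A cell was said to hold a gene at 1 or more counts. Intervals are exact at 95% (Poisson for levels, Clopper-Pearson for shares of cells) and cover counting error only, since reads were not collapsed to molecules. Median depth per cell was 1528316 counts in mESC, 1437414 in CPCC and 1397869 in CB, and 8, 1 and 9 cells lay under 10000 counts. All 8 genes were listed in CB, 7 in CPCC (not Hcn4) and 6 in mESC (not Kcnd3 or Nppa). Each table lists genes that reach at least 1 count in some cell, and a gene that was not listed was given no value.

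The label of the CB sample, mature cardiac cells, was checked against 14 cardiomyocyte sarcomere genes. All 14 were listed in CB, where their summed level was 663.5 CPM and ranged from 25.02 to 1500 CPM across pools. In mESC it was 71.4 CPM (61.2 to 90.4 over pools, 13 genes listed) and in CPCC 182 CPM (127 to 233). Much of the CB sum came from 1 cell of pool 2. It held 60.8% of the Actc1, 84.5% of the Ttn and 69.0% of the Myl7 counts, the genes of the highest CB levels. Tnnt2, cardiac troponin T, was held by 34 of the 232 CB cells (14.7%, interval 10.4 to 19.9), at 40.4 CPM. It was higher in CPCC, at 84.9 CPM in 38 of 175 cells (21.7%, 15.8 to 28.6). In mESC it was at 2.21 CPM in 24 of 215 cells (11.2%, 7.28 to 16.2). At least 5 sarcomere genes at 10 or more counts each were found in 10 CB cells, 2 from pool 1 and 8 from pool 2, against 1 CPCC and 4 mESC cells. Of these, 8 CB, 0 CPCC and 2 mESC cells held Tnnt2, so most cells with Tnnt2 were not rich in sarcomere genes. Fibroblast genes summed to 8951 CPM in CB (8 of 8 listed, 422 to 14594 over pools), so the values below describe a mixed culture in which fewer cells of a type and less RNA per cell cannot be told apart at the level of the sum.

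Ryr2, the calcium release channel, lies on chromosome 13 (GRCm38, 11553102 to 12106945, minus strand). It stood at 2.998 CPM in mESC, 0.772 in CPCC and 7.89 in CB, while it was held by 33, 10 and 11 cells (15.3%, 5.71% and 4.74%). The level was thus highest in the culture with the smallest share of cells, and no order of cultures is read from the shares. With every cell thinned to 430000 counts the shares were 13.5%, 4.46% and 4.76%. A single CB cell of pool 2 carried 61.5% of the culture's Ryr2 counts (1640 counts, 678 CPM within the cell). By pool, the CB levels were 0.224, 19.0 and 1.05 CPM, against 4.51, 1.5 and 3.37 in mESC and 0.412 and 1.11 in CPCC. Pool 2 alone of the CB pools exceeded every mESC pool.

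Atp2a2, the reticulum pump (chromosome 5, 122453513 to 122502225, minus strand), was the one gene of the 8 held by most cells of every culture. Its level was 99.2 CPM in mESC, 99.0 in CPCC and 108 in CB. All pools lay between 83.9 and 118 CPM, and the pools of the cultures overlapped. It was held by 206 of 215 mESC cells (95.8%, interval 92.2 to 98.1), by 160 of 175 CPCC cells (91.4%, 86.3 to 95.1) and by 166 of 232 CB cells (71.6%, 65.3 to 77.3). CB cells without it had a median of 1030493 counts and those with it 1541825, but at equal depth the shares were still 97.9%, 94.3% and 71.0%. CB cells also held fewer genes in general, with a median of 6661 per cell against 9532 in mESC and 9252 in CPCC. The part of this in the Atp2a2 share was not tested. CB cells that held Atp2a2 were spread more widely: the quartiles of their levels were 28.5 and 206 CPM, against 55.2 and 133 in mESC and 54.5 and 136 in CPCC, with medians of 94.6, 94.4 and 85.6 CPM. The CB level therefore came from fewer cells with a broader range.

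Pln, the pump's inhibitor (chromosome 10, 53337667 to 53345987, plus strand), stood at 0.617 CPM in mESC, 0.228 in CPCC and 19.7 in CB, from 2, 2 and 8 cells. By pool the CB levels were 17.3, 41.9 and 0.292 CPM. The pool 2 cell that led Ryr2 held 5489 Pln counts, which was 82.5% of those in CB, and 1 cell of pool 1 held 993. No other CB cell exceeded 85.5 counts. Pln lies inside Cep85l, a gene on the opposite strand that stood at 19.8 CPM in CB, and whether counting used strand was not stated, so low Pln counts are uncertain.

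Slc8a1, the exchanger (chromosome 17, 81373105 to 81738377, minus strand), was close to absent from mESC at 0.0569 CPM (20 counts in 2 cells). It reached 17.0 CPM in CPCC, in 34 of 175 cells (19.4%, interval 13.8 to 26.1), and 38.4 CPM in CB, in 47 of 232 cells (20.3%, 15.3 to 26.0). The CPCC pools differed, with 1.66 CPM in pool 1 and 31.4 in pool 2. CB pools stood at 50.6, 54.0 and 18.8 CPM, each above every mESC pool, of which the highest was 0.172. The pool 2 cell again led in CB with 6101 counts, 47.0% of the total, and the next cell held 640.

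Promoters of Pln, Slc8a1 and Tnnt2 are shown because a motif search found AGATAA in them, and they were chosen after that search. RefSeq windows (GRCm38.p6) matched 7 of the 8 genes (not Atp2a2), and Tnnt2, whose first start is shown. In the 250 bases before the start, 5 motifs of cardiac and muscle factors were searched on both strands: AGATAA for GATA factors, CTA and TAG with 4 bases between them for MEF2, CATTCC for the MCAT element, TTAAGTG for NKX2-5 and the CArG box by name. Capitals mark AGATAA, which reads TTATCT where it lies on the other strand, and CATTCC in Tnnt2. The windows are chr10:53337436-53337685 (plus strand) for Pln, chr17:81738388-81738637 (minus strand) for Slc8a1 and chr1:135836084-135836333 (plus strand) for Tnnt2.
Pln: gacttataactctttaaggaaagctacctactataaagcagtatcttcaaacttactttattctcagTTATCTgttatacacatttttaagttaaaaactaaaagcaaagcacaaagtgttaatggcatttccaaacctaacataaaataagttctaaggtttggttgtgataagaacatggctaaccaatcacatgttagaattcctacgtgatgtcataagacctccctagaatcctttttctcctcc
Slc8a1: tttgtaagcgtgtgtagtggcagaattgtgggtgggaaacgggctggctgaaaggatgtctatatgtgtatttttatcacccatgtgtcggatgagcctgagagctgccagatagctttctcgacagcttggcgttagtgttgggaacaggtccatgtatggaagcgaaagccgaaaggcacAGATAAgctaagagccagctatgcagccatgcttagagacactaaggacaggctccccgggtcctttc
Tnnt2: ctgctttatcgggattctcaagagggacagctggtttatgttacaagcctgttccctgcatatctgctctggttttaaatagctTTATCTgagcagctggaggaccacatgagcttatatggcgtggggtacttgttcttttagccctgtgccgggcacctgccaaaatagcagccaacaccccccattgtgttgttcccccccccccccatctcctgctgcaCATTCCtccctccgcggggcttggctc
Each of the 3 windows held AGATAA 1 time, a motif found in 9.99% of all 32851 windows of this length. CATTCC, present in the Tnnt2 window, was in 12.6% of windows. TTAAGTG occurred in the Kcnd3 window and in 2.10% of all. No match was found in the windows of Ryr2, Cacna1c, Hcn4 or Nppa, and the MEF2 motif (3.20% of windows) and the CArG box (1.47%) were in none of the members'. The matches describe letters only and were not tested as binding sites. For the GATA, MCAT and NKX2-5 factors only the spelling given was searched. A window without a match can therefore hold other spellings of these motifs.

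Cacna1c, the L-type channel pore (chromosome 6, 118587240 to 119196418, minus strand), stood at 0.114 CPM in mESC, 2.95 in CPCC and 8.82 in CB. It was held by 6 mESC cells (2.79%, interval 1.03 to 5.97), 23 CPCC cells (13.1%, 8.52 to 19.1) and 40 CB cells (17.2%, 12.6 to 22.7). Of the 815 CPCC counts, 808 lay in pool 2. CB pools stood at 4.12, 0.258 and 18.7 CPM, so the pool with the most sarcomere-rich cells was the lowest for this channel. The 3 cells with the most Cacna1c counts in CB (609, 405 and 364) were all of pool 3, and each had 0 counts of Tnnt2 and no sarcomere gene at 10 counts. The gene overlaps Dcp1b on the opposite strand (7.998 CPM in CB).

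The remaining genes were held by few cells. Kcnd3, the transient outward channel (chromosome 3, 105452330 to 105674002, plus strand), stood at 0.265 CPM in CPCC from 6 cells and at 1.36 in CB from 4 cells. Of the 461 CB counts, 228 and 197 came from 2 cells of pool 1, neither with Tnnt2. Hcn4, the pacemaker channel (chromosome 9, 58823412 to 58863175, plus strand), stood at 0.555 CPM in mESC from 4 cells and at 0.213 in CB from 5 cells. Its highest value in mESC was 137 counts in 1 cell of pool 3, and in CB 50 counts in the pool 1 cell that also held Pln. Nppa, the natriuretic peptide (chromosome 4, 148000722 to 148002079, plus strand), stood at 1.24 CPM in CPCC from 3 cells with 233, 107 and 2 counts. In CB it stood at 4.94 CPM from 2 cells with 920 and 750 counts, in pools 2 and 1. In the cells that held it, Nppa thus reached 381 and 553 CPM in CB, while 0.862% of CB cells held it.

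**Figure D1:**
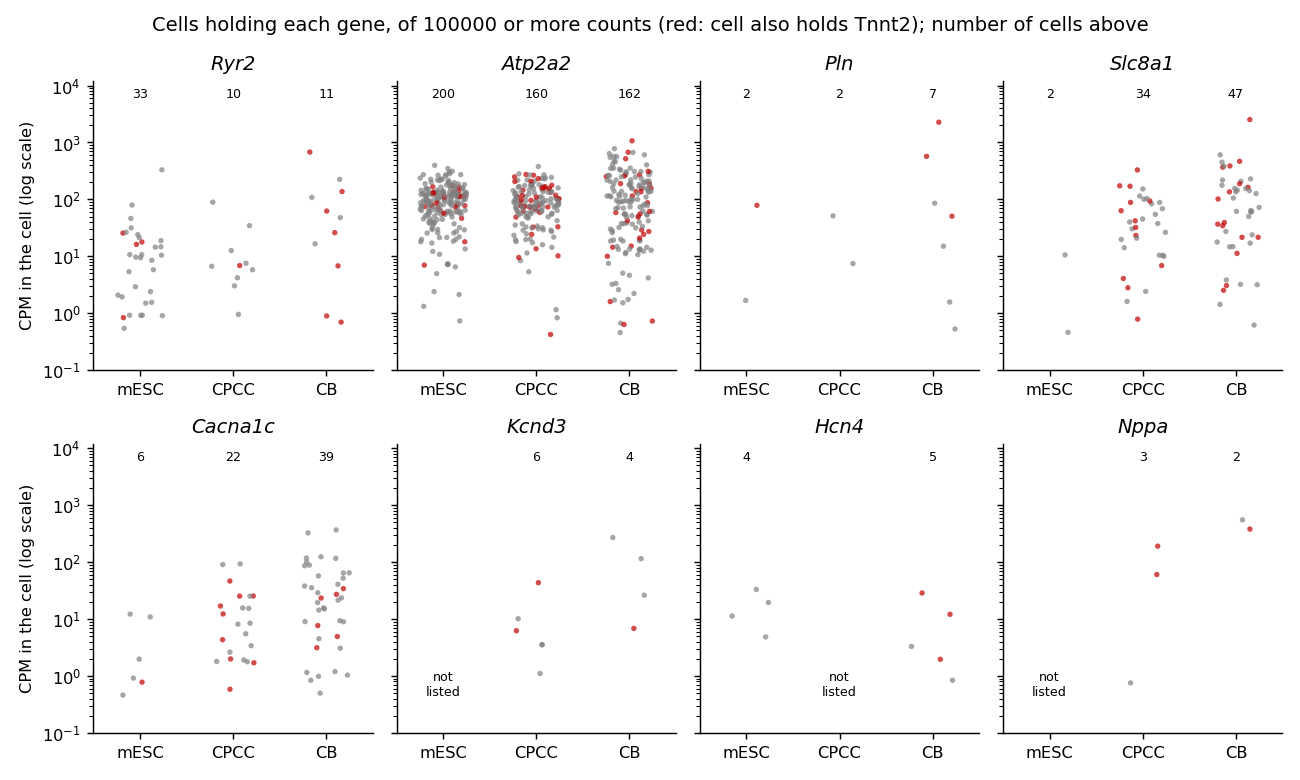
CPM of each gene (log axis) in every cell of at least 100000 counts that holds it, by culture, with cells that also hold Tnnt2 in red and the number of plotted cells above each column. Atp2a2 fills all 3 cultures around the same level, Slc8a1 and Cacna1c are held by 47 and 40 of all 232 CB cells, and the other genes sit in fewer. The highest points in CB for Ryr2, Pln and Slc8a1 (678, 2271 and 2524 CPM) are all the same cell, which also holds Tnnt2.

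**Figure D2:**
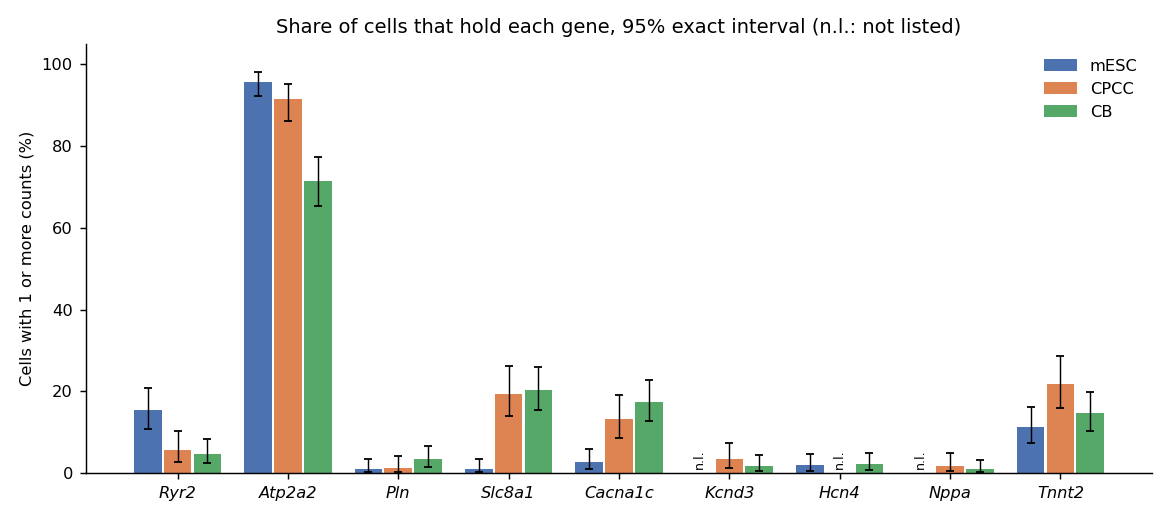
Percentage of cells with at least 1 count of each gene in mESC, CPCC and CB, with exact 95% intervals as bars (n.l., not listed). Slc8a1 goes from 0.930% of mESC cells to 19.4% of CPCC and 20.3% of CB cells, Cacna1c from 2.79% to 13.1% and 17.2%, and Atp2a2 from 95.8% to 91.4% and 71.6%.

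Per kilobase of exon, the CB order of levels was Atp2a2 (17.7 CPM per kb), Pln (7.13), Nppa (5.71), Slc8a1 (2.04), Cacna1c (0.416), Ryr2 (0.274), Kcnd3 (0.142) and Hcn4 (0.0348). Over the 3 CB pools the levels per kb ran from 16.1 to 19.4 for Atp2a2, apart from the 0.106 to 15.2 of Pln, and from 0.999 to 2.87 for Slc8a1, apart from the 0.0122 to 0.883 of Cacna1c. For the other neighbours the ranges of the pools overlapped, and their order is not read.

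Between cultures, a log2 ratio of (CPM + 1) of at least 1 in size was called a change of 2-fold or more. The call has no test behind it. In CPCC against mESC, 5 of the 8 genes were listed in both. Slc8a1 was higher by 4.09 (17.1-fold on the CPM + 1 scale, interval of the log2 ratio 4.01 to 4.16) and Cacna1c by 1.83 (1.70 to 1.94). Ryr2 was lower, at -1.17 (-1.32 to -1.02), while Pln at -0.40 and Atp2a2 at -0.00 were within 2-fold. With a pseudocount of 0.1 CPM, Pln was past it, at -1.13. In all, 2 of 5 were higher and 1 of 5 lower, where 13.4% of all 20272 genes listed in both were higher and 6.38% lower. Slc8a1 was higher in 6 of 6 pairs of pools and Ryr2 lower in 6 of 6. Cacna1c was higher in 4 of 6 and at -0.08 without CPCC pool 2. Without that pool Slc8a1 was at 1.33. Ryr2 was at -0.86 with shallow and mitochondria-rich cells left out, at -0.92 without CPCC pool 1 and at -0.90 without mESC pool 1.

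In CB against mESC, 4 of 6 genes were higher, beside 24.9% of 19855 genes, and none of the 6 was lower, beside 11.3%. The ratios were 5.22 for Slc8a1 (37.3-fold, 5.15 to 5.28), 3.68 for Pln (3.57 to 3.78), 3.14 for Cacna1c (3.04 to 3.23) and 1.15 for Ryr2 (1.04 to 1.27). Slc8a1 and Cacna1c were higher in 9 of 9 pool pairs, with Cacna1c between 0.10 and 4.26, whereas Pln was higher in 8 of 9 and Ryr2 in 3 of 9. Without CB pool 2, Ryr2 turned to -1.15 and Pln was at 1.99, and without CB pool 3 Cacna1c was at 1.16. Ryr2 was also within 2-fold with TMM (0.99) and DESeq2 size factors (0.94), as a mean over single cells (0.56) and without mESC pool 2 (0.84). Without the CB cell of the highest sarcomere counts, Ryr2 was at 0.02 and Pln at 1.46, and without the top cell of each gene in each culture at 0.35 and 2.14. Without the 10 sarcomere-rich cells, Pln went to -0.08 and Ryr2 to -0.13, while Slc8a1 stayed at 4.17 and Cacna1c at 3.21. Hcn4 was at -0.36, and at -1.07 with a pseudocount of 0.1 CPM. Atp2a2 was at 0.12, which became -0.08 with TMM and -0.14 with DESeq2 size factors. These scalings shift a ratio of CB against mESC by 0.20 and 0.26 downwards before the pseudocount is added, so the sign of Atp2a2 is not read.

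In CB against CPCC, 5 of 7 genes were higher, beside 17% of 20995 genes, and none lower, beside 7.54%. They were Pln at 4.07 (3.97 to 4.17), Ryr2 at 2.33 (2.19 to 2.46), Nppa at 1.41 (1.26 to 1.55), Cacna1c at 1.31 (1.19 to 1.43) and Slc8a1 at 1.13 (1.06 to 1.19). Kcnd3 at 0.90 and Atp2a2 at 0.12 were within 2-fold. Kcnd3 was at 1.36 without CB pool 2, 1.34 without CB pool 3 and 1.06 without CPCC pool 2, at 1.01 as a mean over single cells and 2.005 with a pseudocount of 0.1 CPM, and at -0.17 without CB pool 1. Over pairs of pools, Pln and Slc8a1 were higher in 5 of 6, Nppa and Cacna1c in 4 of 6 and Ryr2 in 3 of 6. Without the CB cell of the highest sarcomere counts, Slc8a1 fell to 0.25 and Nppa to 0.53, and 3 genes remained past 2-fold (Pln, Ryr2 and Cacna1c). Cacna1c turned to -0.66 without CB pool 3, and without CB pool 2 Ryr2 was at 0.02 and Slc8a1 at 0.71. Without CB pool 1, Nppa was at 0.95. Without CPCC pool 1, Slc8a1 was at 0.28 and Cacna1c at 0.56. Without the sarcomere-rich cells Nppa turned to -1.16, Pln fell to 0.32 and Slc8a1 to 0.08. Slc8a1 was at 0.93 with TMM factors.

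Whether cells with Tnnt2 hold these genes was asked within each culture. In CB, the 34 cells with Tnnt2 had a median of 1335354 counts and the 198 without it 1420980, so depth was slightly lower in the former. Ryr2 was held by 7 of 34 cells with Tnnt2 (20.6%, interval 8.70 to 37.9) and 4 of 198 without (2.02%, 0.55 to 5.09). Slc8a1 was held by 16 of 34 (47.1%, 29.8 to 64.9) and 31 of 198 (15.7%, 10.9 to 21.5). For Atp2a2 the shares were 88.2% (72.5 to 96.7) and 68.7% (61.7 to 75.1). For these 3 genes the share among cells with Tnnt2 was the larger, and the intervals of Ryr2 and Slc8a1 did not overlap. At equal depth those of Slc8a1 did (40%, 22.7 to 59.4, and 16.7%, 11.5 to 22.9). All 7 cells with Ryr2 and Tnnt2 were of pool 2, where 15 cells held Tnnt2, and the 19 cells with Tnnt2 in the other pools held no Ryr2.

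The shares of the other 5 genes had overlapping intervals: Pln 8.82% and 2.53%, Hcn4 8.82% and 1.01%, Cacna1c 17.6% and 17.2%, Kcnd3 2.94% and 1.52%, and Nppa 2.94% and 0.505%. All 8 shares were larger with Tnnt2, but so were those of 62.8% of the 24228 genes in the table, and at equal depth 6 of 8 were. For Cacna1c and Nppa, the numbers of cells were 6 of 34 and 34 of 198, and 1 of 34 and 1 of 198.

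Levels separated the genes further. In CB cells with and without Tnnt2, Pln stood at 122 and 0.465 CPM, Slc8a1 at 159 and 15.8, Ryr2 at 36.3 and 2.58, Nppa at 17.3 and 2.63, Hcn4 at 1.24 and 0.0211 and Atp2a2 at 154 and 99.0. Cacna1c ran the other way, with 1.93 CPM in cells with Tnnt2 and 10.1 in cells without, and so did Kcnd3, with 0.0188 (1 count) and 1.61. Thus 5 of 8 genes were higher by 2-fold or more and 2 lower, beside 6.47% and 13.3% of all genes. Cells with Tnnt2 held 98.0% of the Pln, 72.5% of the Ryr2 and 65.3% of the Slc8a1 counts, but 3.45% of the Cacna1c counts. Without the 1 cell with the most Tnnt2, Ryr2 fell to a log2 ratio of 0.92 and Nppa to -1.86, while Pln was at 3.86 and Slc8a1 at 1.51. Without pool 2, Ryr2 was at -0.94, Nppa at -2.38 and Slc8a1 at 0.98, and without pool 1 Hcn4 was at 0.03 and Kcnd3 at -0.20. Without the sarcomere-rich cells, Pln was at 0.41, Ryr2 at 0.13 and Slc8a1 at 0.997, and none of the 5 higher genes stayed past 2-fold. The lower Cacna1c level rested on pool 3, and without that pool the ratio was -0.09.

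**Figure D3:**
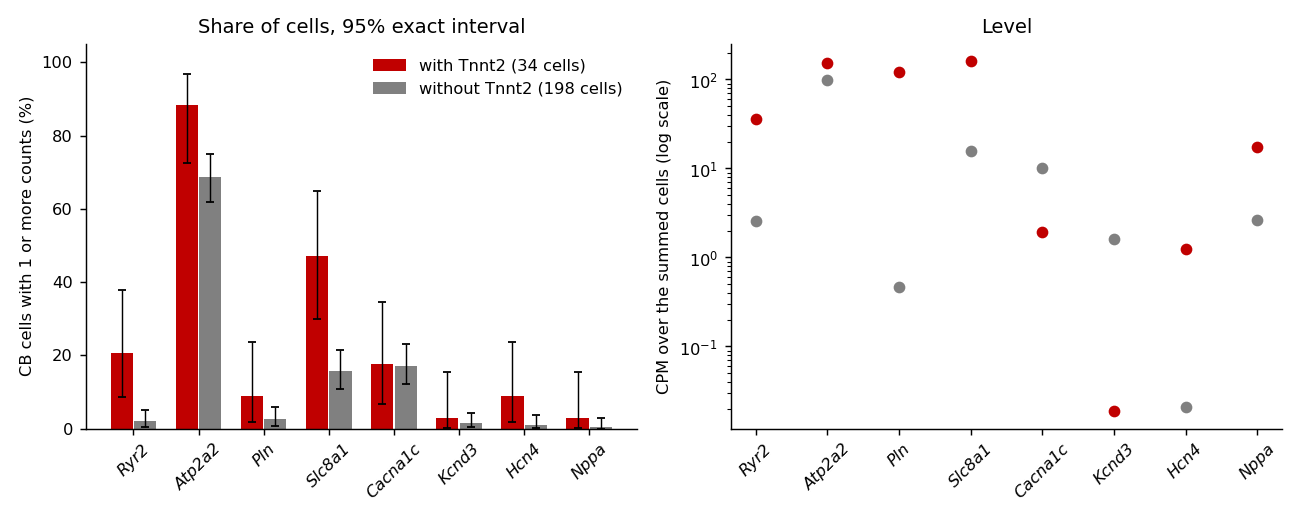
Left, percentage of CB cells that hold each gene among the 34 cells with Tnnt2 and the 198 without, with exact 95% intervals. Right, the level in CPM over the summed cells of each set (log axis, no error bar). Ryr2 and Slc8a1 have intervals apart in the left panel (20.6% and 2.02%, 47.1% and 15.7%), Cacna1c has level shares (17.6% and 17.2%), and in the right panel Pln lies furthest apart (122 and 0.465 CPM).

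In CPCC the 38 cells with Tnnt2 were deeper (median 1693683 counts) than the 137 without (1322462). Slc8a1 was held by 13 of 38 (34.2%, interval 19.6 to 51.4) and 21 of 137 (15.3%, 9.75 to 22.5), at 33.8 and 11.1 CPM. Cacna1c was held by 9 of 38 (23.7%, 11.4 to 40.2) and 14 of 137 (10.2%, 5.70 to 16.6), at 5.38 and 2.09 CPM. At equal depth the shares were 25% and 17.6% for Slc8a1 and 21.9% and 11.2% for Cacna1c. Of the 38 cells with Tnnt2, 27 were of pool 2, among them 12 of the 13 with Slc8a1 and all 9 with Cacna1c. Over all 96 cells of that pool, 30 held Slc8a1 and 22 held Cacna1c. The part of the pool was not tested. Ryr2 was held by 1 of 38 and 9 of 137, and Pln by 0 of 38, which allows up to 9.25%, and 2 of 137. Atp2a2 was held by 37 of 38 and 123 of 137, at 113 and 94.2 CPM, and Kcnd3 by 2 of 38 and 4 of 137. Nppa was held by 2 of 38 and 1 of 137, at 4.70 and 0.00982 CPM, a log2 ratio of 2.498 that turned to -1.32 when Tnnt2 was required at 10 or more counts. In mESC, 24 cells held Tnnt2 at low counts (at most 160), and Ryr2 was in 4 of these 24 (16.7%) and 29 of the other 191 cells (15.2%). The difference between cultures in these shares was not tested.

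At least 2 of the 8 genes apart from Atp2a2 were held together by 10 of 34 CB cells with Tnnt2 (29.4%, interval 15.1 to 47.5) and 18 of 198 without (9.09%, 5.48 to 14.0). In CPCC this was 8 of 38 (21.1%, 9.55 to 37.3) and 7 of 137 (5.11%, 2.08 to 10.2), and in mESC 0 of 24 and 2 of 191. No cell of any culture held more than 5 of the 8 genes.

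The 10 sarcomere-rich CB cells were chosen on sarcomere genes, Tnnt2 among them, and not on the 8 genes, and they are numbered here by how many sarcomere genes they had at 10 or more counts. Cell 2, of pool 2, had all 14 sarcomere genes at 10 or more counts and held 5 of the 8 genes: Slc8a1 at 2524 CPM, Pln at 2271, Ryr2 at 678, Atp2a2 at 517 and Nppa at 381, with Tnnt2 at 2372 CPM. Cell 1, of pool 1, also had 14 sarcomere genes at that level, and held Atp2a2 at 1071 CPM, Pln at 570, Slc8a1 at 368 and Hcn4 at 28.7 CPM, but neither Ryr2 nor Nppa. Cell 4, of pool 2 and with 9 such genes, held Ryr2 at 137 CPM without Pln. Cell 6, of pool 1, held Nppa at 553 CPM and had 6 such genes, with none of the other 7 genes and no Tnnt2 count. Of 6 epithelial genes (Epcam, Krt8, Krt18, Krt19, Cdh1 and Cldn6), cell 2 had 3 at 10 or more counts and cell 6 had 6. Cell 8 had 2, cell 9 had 5, cell 10 had 3 and the rest of the 10 cells, with cells 1 and 4 among them, had 0. What the epithelial genes mean for the values of these cells was not tested.

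Over the 10 cells, Atp2a2 was held by 9 at a summed level of 275 CPM, Slc8a1 by 7 at 363 CPM, Ryr2 by 4 at 91.1 CPM, and Pln, Hcn4, Nppa and Cacna1c by 2 each. In the other 222 CB cells the levels were 97.1 CPM for Atp2a2, 18.0 for Slc8a1, 2.65 for Ryr2, 0.528 for Pln and 9.31 for Cacna1c. Cacna1c stood at 1.05 CPM in the 10 cells, and 0.704% of its CB counts were there, against 97.5% of the Pln counts. Kcnd3 was held by 0 of 10, which allows a share of up to 30.8%. In the same cells the sarcomere genes held by the majority were Tnni1, Myl3, Tnnt2, Actc1, Myl4, Myl7, Ttn, Myh6, Myh7 and Mybpc3, in 7 to 9 cells each.

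**Figure D4:**
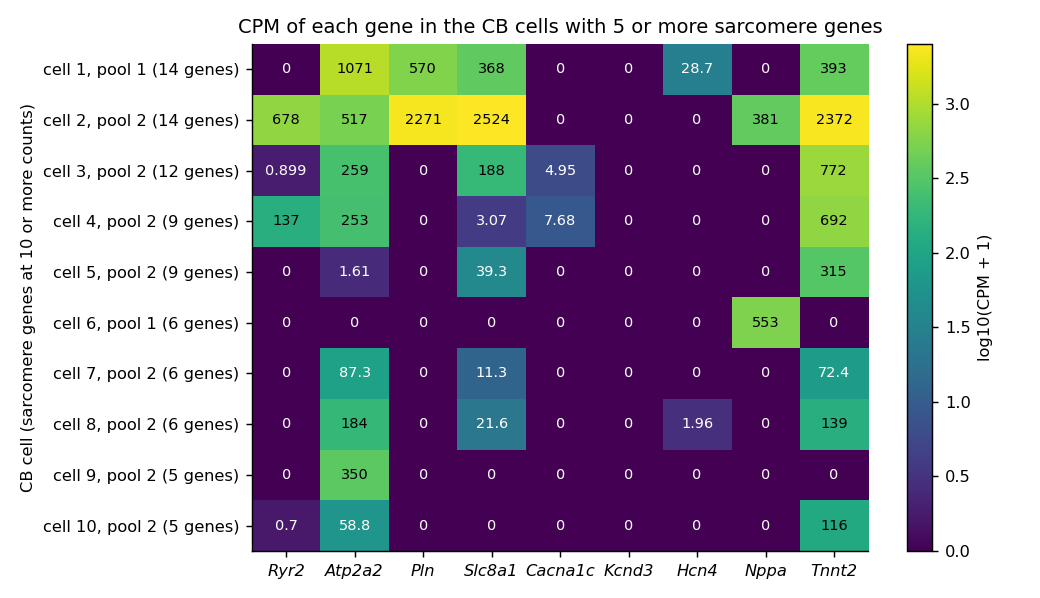
CPM of the 8 genes and Tnnt2 (numbers; colour is log10 of CPM + 1) in the 10 CB cells with at least 5 sarcomere genes at 10 or more counts, 1 row per cell. Cells 1 and 2 carry Pln and high Slc8a1, Cacna1c is at 0 in 8 of the 10 cells, and Nppa appears in cells 2 and 6.

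Slc8a1 and Cacna1c were held by many cells outside this set, and these were looked up in fixed marker lists of other cell types. A cell was counted to a list when it had at least 3 of its genes at 10 or more counts. These sets overlap and are ranges of a count, not cell types. In CB, 120 cells passed for the 8 fibroblast genes (Col1a1, Col1a2, Col3a1, Dcn, Lum, Postn, Pdgfra and Tcf21), and 9 more lay 1 gene below. Cacna1c was held by 38 of the 120 (31.7%, interval 23.5 to 40.8) and 2 of the other 112 (1.79%, 0.217 to 6.30). The 120 cells held 99.5% of the culture's Cacna1c counts, at 16.5 CPM against 0.0887. Median depth was 1431408 and 1368834 counts. Within pools the counts were 13 of 50 and 0 of 19, 3 of 16 and 2 of 62, and 22 of 54 and 0 of 31. Of the 120 cells, 17 held Tnnt2. CB cells with smooth muscle genes held Cacna1c in 12 of 31 (38.7%, interval 21.9 to 57.8) and the rest in 28 of 201 (13.9%, 9.46 to 19.5), at 8.42 and 8.89 CPM.

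In CPCC, Cacna1c was held by 18 of 37 cells with fibroblast genes (48.6%, interval 31.9 to 65.6) and 5 of 138 without (3.62%, 1.19 to 8.25), at 10.3 and 0.367 CPM. Smooth muscle genes gave 20 of 57 (35.1%, 22.9 to 48.9) and 3 of 118 (2.54%, 0.527 to 7.25). Cells with at least 3 epithelial genes had Cacna1c in 2 of 100 and cells without in 21 of 75. Of these, 61 of the 100 and 18 of the 75 were of pool 1. Cacna1c was held by 1 of 79 cells of pool 1 and 22 of 96 of pool 2. For fibroblast genes the counts were 1 of 8 and 0 of 71 in pool 1, and 17 of 29 and 5 of 67 in pool 2. The part of the pool was not tested. Endothelial genes gave 3 of 6 cells (50%, 11.8 to 88.2), which held 41.6% of the counts. The cells with fibroblast and with smooth muscle genes were deeper than the rest, with medians of 1709394 against 1298722 counts for the fibroblast genes and 1672658 against 1333250 for smooth muscle, and those with epithelial genes were shallower, with 1271632 against 1672658, and the part of depth was not tested.

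Slc8a1 was spread over more sets. In CPCC it was held by 13 of 20 cells with macrophage genes (65%, interval 40.8 to 84.6), all from pool 2, where it was in 17 of the other 76 cells. The levels within that pool were 66.4 and 19.0 CPM. Fibroblast genes gave 13 of 37 (35.1%, 20.2 to 52.5) and smooth muscle genes 19 of 57 (33.3%, 21.4 to 47.1), while of 100 cells with epithelial genes 8 held it (8%, 3.52 to 15.2) at 0.770 CPM. Of these 100 cells, 61 were of pool 1, where 4 of 79 cells held Slc8a1, against 30 of 96 in pool 2. The part of the pool was not tested. In CB Slc8a1 was in 32 of 120 cells with fibroblast genes (26.7%, 19.0 to 35.5) at 29.9 CPM, and in 15 of the other 112 (13.4%, 7.69 to 21.1) at 48.2 CPM. The pool 2 cell that held 47.0% of the counts was among these 112. Within pools the shares ran both ways, with 18 of 50 and 2 of 19 in pool 1, 2 of 16 and 9 of 62 in pool 2, and 12 of 54 and 4 of 31 in pool 3. CB cells with smooth muscle genes held Slc8a1 in 13 of 31 (41.9%, 24.5 to 60.9) at 162 CPM, against 34 of 201 (16.9%, 12.0 to 22.8) at 16.5 CPM. The pool 2 cell was among these 31, and without it their level was 44.3 CPM. Their median depth was 1711122 counts against 1361176. The 10 CPCC cells with Ryr2 were all among the 100 cells with epithelial genes, at 10% (4.90 to 17.6) against 0 of 75, which allows up to 4.80%. Of the same 10 cells, 8 were among the 92 with pluripotency genes (8.70%, 3.83 to 16.4, against 2 of 83), and these held 86.4% of the counts. A single cell of pool 2 held 142 of the 213 CPCC counts of Ryr2, and without it the culture stood at 0.259 CPM.

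**Figure D5:**
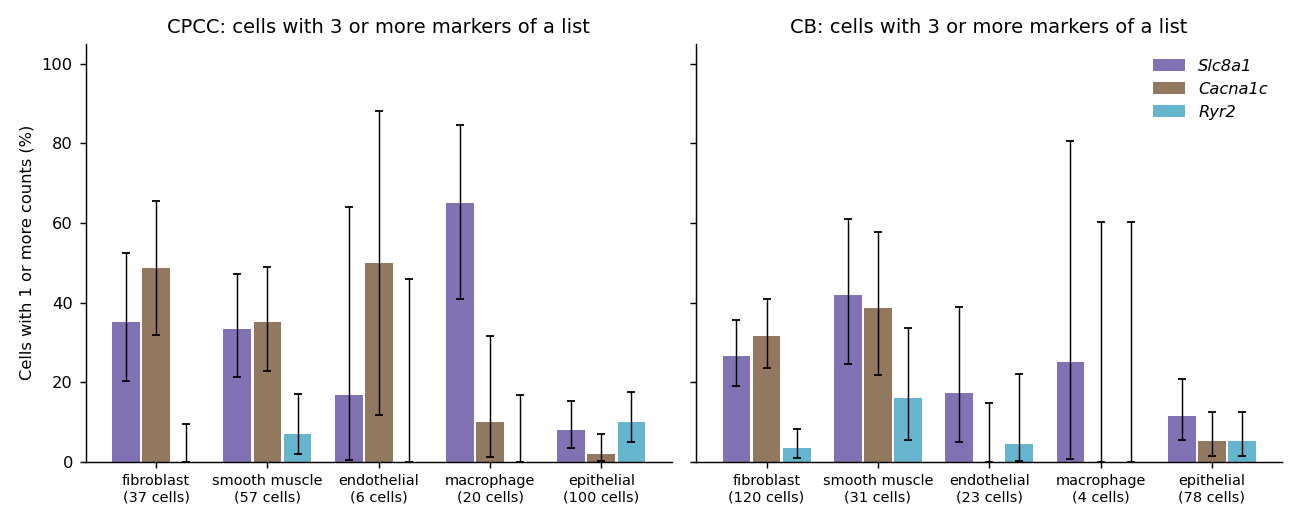
Percentage of cells holding Slc8a1, Cacna1c and Ryr2 among CPCC cells (left) and CB cells (right) with at least 3 markers of each list, with exact 95% intervals and the number of cells under each list. Cacna1c is held by 48.6% and 31.7% of cells with fibroblast genes against 2% and 5.13% of those with epithelial genes, and Slc8a1 reaches 65% in CPCC cells with macrophage genes.

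Around the 8 genes, 71 further genes of the same systems were taken from lists fixed by role: calcium stores, membrane calcium transport, potassium channels, sodium and pacemaker channels with gap junctions, and natriuretic peptides. Of these, 51 were listed in mESC, 59 in CPCC and 61 in CB. In CB against mESC, 26 of 50 were higher by 2-fold or more and 4 lower, with a median log2 ratio of 1.04 beside 0.13 over all genes. In CPCC against mESC the counts were 16 and 4 of 49 (median 0.35, all genes -0.02) and in CB against CPCC 18 and 2 of 53 (0.72, all genes 0.14). The background shares are those given above for each pair.

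Membrane calcium genes moved in most members: 9 of 13 were higher in CB than in mESC and 1 lower, with a median of 1.36. Atp2b1, the plasma membrane calcium pump, had the highest level of the 71 genes in CPCC and CB, with 75.1 CPM in mESC, 135 in CPCC and 232 in CB, and was held by 93.5%, 91.4% and 88.4% of cells. Cacna1g, a T-type channel of pacemaker and embryonic heart cells, stood at 0.0427, 1.07 and 21.02 CPM, with CB pools from 0.9998 to 42.5. Its CB ratios were 4.40 against mESC and 3.41 against CPCC, and 23.3% of CB cells held it (interval 18.0 to 29.3).

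Among calcium store genes, 7 of 17 were higher in CB than in mESC and 1 lower. Camk2d, the kinase that phosphorylates phospholamban and the ryanodine receptor, stood at 2.44 CPM in mESC, 68.7 in CPCC and 72.4 in CB, in 13.95%, 64% and 56.9% of cells. Casq1, the skeletal calsequestrin, was at 2.71, 10.4 and 0.81 CPM, a ratio of -2.66 in CB against CPCC. Itpr3, an inositol trisphosphate receptor, was at 9.58, 5.43 and 7.15 CPM.

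Of the sodium, pacemaker and gap junction genes, 6 of 10 were higher in CB than in mESC. Gja1 (connexin 43) stood at 8.51, 115 and 156 CPM and was held by 83.4% of CPCC and 59.9% of CB cells. Gjc1 (connexin 45), at 79.2, 48.2 and 68.3 CPM, and Atp1b1, a sodium pump subunit at 121, 64.1 and 102 CPM, were high in mESC already. Popdc2, a Popeye protein of heart muscle, stood at 0.456, 1.96 and 17.7 CPM, with CB pools from 0 to 32.8 CPM.

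Potassium channels were sparse: 5 of 16 were listed in mESC, 7 in CPCC and 12 in CB. Of all 27886 genes, 22439, 23371 and 24229 were listed. Kcnj12, an inward rectifier, was highest in mESC, at 6.62 CPM in 22.8% of cells against 0.17 in CPCC and 0.358 in CB. The natriuretic peptide list held Npr3, the clearance receptor, at 2.15, 16.7 and 108 CPM, which was the largest ratio of CB against mESC (5.11) among the named genes of the 71, in 39.2% of CB cells. Npr1, the guanylate cyclase receptor of the atrial peptide, went the other way, at 17.1, 6.56 and 3.49 CPM (-2.02 in CB against mESC). Nppb, the brain natriuretic peptide, was at 1.01, 5.90 and 2.28 CPM, and 88.6% of its CB counts came from 1 cell.

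For the members held by at least 10% of CB cells, the genes with the most similar levels over the 232 cells were ranked by Spearman correlation among 13738 genes, as a description with no test. Gm30970 was nearest to Atp2a2 (rho 0.60), and no other gene reached 0.5 for Atp2a2, Slc8a1 or Cacna1c. In GENCODE M21, Gm30970 is a processed pseudogene, and it matched Atp2a2 transcripts over 362 bases at 99.2% identity. All 53 CB cells, 88 CPCC cells and 110 mESC cells that held Gm30970 also held Atp2a2, and reads of the shared sequence can be assigned to either gene. Gm30970 stood at 1.06, 1.33 and 0.922 CPM in mESC, CPCC and CB.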

How the data were processed

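Single cells of 3 cultures were captured on a Fluidigm C1, amplified with SMART-Seq v4 and sequenced in pairs. Per the study's methods, the authors aligned reads with STAR 2.7 to the mouse genome (GRCm38) and quantified genes against an Ensembl annotation. The counting model and its use of strand are not given in the sources used here. The authors deposited estimated counts for mESC and CB, where 29.2% and 31.2% of the values above 0 are not whole. For CPCC the deposited values are whole counts, so levels set across the tables also carry this difference. In CPCC, 2 columns that no label maps, 208 rows without a gene name and 23 rows whose symbol had become a date (0.139% of counts) were left out.

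Counts were summed over cells and scaled to CPM with Python 3.11.15 (numpy 2.4.6, pandas 2.3.3, scipy 1.17.1). Ratios were log2 of (CPM + 1), called at a size of 1 or more. On the log2(CPM + 1) scale the change of low genes is understated. With 1 sample per culture no test was made. Intervals cover counting error only, because reads were not collapsed to molecules. Shares at equal depth came from cells thinned to 430000 counts, without the shallower cells (22 in mESC, 18 in CPCC, 22 in CB). No doublet caller was run, and the study inspected capture chambers by microscope. Cells were otherwise not filtered. Scaling by TMM factors (edgeR 4.0.16) and DESeq2 1.42.0 size factors, other pseudocounts, filters and count minimums were alternatives. The ratio script was checked on simulated data.

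The 8 genes and all lists were chosen with earlier results of these data known. Named were the 8 genes and Tnnt2. Of the 71 pathway genes, the 3 highest in CPM per culture and the 3 highest and 3 lowest ratios per pair (at 5 or more CPM in the higher culture) were named, apart from a few genes that are not reported here. Sarcomere genes were named where the majority of sarcomere-rich CB cells held them, and of the 3 genes most correlated with a member over CB cells those at rho 0.5 or more.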

Additional observations from a re-analysis of the deposited data

Results flagged for a closer look

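Cacna1c, the L-type channel pore, ran in opposite directions in cells with Tnnt2 in the 2 differentiated cultures. In CPCC its log2 ratio of cells with Tnnt2 against cells without was 1.045 (5.38 and 2.09 CPM, 9 of 38 and 14 of 137 cells). At equal depth the CPCC ratio was 0.81, under 2-fold, with Tnnt2 at 10 or more counts it was 1.64 (8 of 23 and 15 of 152 cells), and the 9 cells were all of CPCC pool 2. In CB the ratio was -1.92 (1.93 and 10.1 CPM, 6 of 34 and 34 of 198 cells). With 1 sample per culture the difference was not tested. CB pool 3 held 2692 of the 2983 Cacna1c counts, and without it the CB ratio was -0.09.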

How the results depend on the processing

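No paired analysis was possible because each culture is 1 sample and no test was made. For counts of the 8 genes past a threshold, 40 of 44 other settings stayed within 1.5 times the reported count. The other 4 were a pseudocount of 10 CPM, which left 1 gene past 2-fold in CPCC against mESC, 2 in CB against mESC and 1 in CB against CPCC, and a minimum of 10 counts, which left 1 gene in at least 10% of mESC cells. Settings added after seeing the data moved 6 of 28 counts. Without the sarcomere-rich CB cells 2 genes were past 2-fold in CB against mESC, 3 in CB against CPCC and 2 between CB cells with and without Tnnt2. The last 2 were Cacna1c and Kcnd3, both lower with Tnnt2. In CB against CPCC 3 remained without CPCC pool 1 and 3 without the CB cell with the most sarcomere counts. Without CB pool 2, 5 genes had the larger share in cells with Tnnt2. For ratios past 2-fold, direction turned in 1 of 138 recomputed values and in 8 of 109 from settings added after seeing the data. The first was Nppa between CB cells with and without Tnnt2, at -1.86 without the cell with the most Tnnt2. The later ones were, without CB pool 2, Ryr2 in CB against mESC (-1.15) and, between cells with and without Tnnt2, Ryr2 (-0.94) and Nppa (-2.38). Without the sarcomere-rich cells, Ryr2 (-0.13) and Pln (-0.082) turned in CB against mESC and Nppa (-1.16) in CB against CPCC. Cacna1c turned without CPCC pool 2 in CPCC against mESC (-0.082) and without CB pool 3 in CB against CPCC (-0.66). Each of these settings removes cells that carried the counts. Ratios within 2-fold changed sign in 8 and 9 further values, most of them of Atp2a2, and also of Pln in CPCC against mESC (0.02 without its top cell, 0.30 without mESC pool 2), Hcn4 in CB against mESC (0.11 without mESC pool 3) and Kcnd3 in CB against CPCC (-0.17 without CB pool 1).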

Other observations

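Among the potassium channel genes, Kcnj8 and Abcc9, the pore and the regulatory subunit of the ATP-sensitive channel of vascular and cardiac muscle, were listed in CB and in neither other culture, as were 3 other genes of that list at 0.417 to 2.15 CPM. The share of all genes listed in CB alone was not counted, so this is not read as particular to the list. Kcnj8 and Abcc9 were chosen after their values were seen. Kcnj8 stood at 21.1 CPM in 9.91% of CB cells (interval 6.39 to 14.5), with pools from 0 to 37.6 CPM. Abcc9 stood at 9.95 CPM in 7.76% of cells (4.66 to 12.0), with pools from 7.80 to 12.2 CPM. A single cell held 37.2% of the Kcnj8 and 47.5% of the Abcc9 counts.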
